A study of Mus musculus with 12 samples.

Results

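The nuclear genes that encode the subunits of the oxidative phosphorylation complexes were followed across the cell types of the mouse joint. Members were chosen by symbol alone. Complex I took Nduf genes of the series a, b, c, s and v with a number, complex II Sdha to Sdhd and complex III Uqcr genes. Complex IV took genes from Cox4 to Cox8 with a, b or c after the number, and complex V Atp5 genes. No Cox4 gene had such a letter, so Cox4i1 and Cox4i2 are not members. The name rule gave 82 genes of the 27998 in the files. By name, 37 were assigned to complex I, 4 to complex II, 8 to complex III, 16 to complex IV and 17 to complex V. A name alone does not show that a gene encodes a subunit of that complex, and Ndufa4 is counted with complex I throughout. All 82 had a position in GENCODE M21 (GRCm38) and were protein-coding, spread over 19 chromosomes with 3 on X. The 13 subunits encoded by mitochondrial DNA were left out of the members and served as a list of their own.

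The cells came from male wild-type C57BL/6 mice, 8 to 10 weeks old by the study's methods, in a study of hexokinase 2 (Hk2) in joint fibroblasts. Arthritis was serum transfer-induced arthritis (STIA), in which serum of arthritic K/BxN mice was injected and the inflammation later subsided. The 12 libraries, 3 to a label, were called rest where no serum had been given (day 0), peak at days 7 to 9 after serum, resolving at day 15 and resolved at day 22. Each library pooled the hind limb joints of 3 animals and held live cells sorted as negative for CD45, a surface marker of immune cells, so n counts pools and not animals.

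The complexes sit in the inner mitochondrial membrane. Complex I takes electrons from NADH and complex II takes them from succinate, complex III passes them to cytochrome c, and complex IV hands them to oxygen. Complexes I, III and IV pump protons, and complex V, the ATP synthase, uses the returning protons to make ATP. Several subunits of complex IV exist as isoforms of different genes, among them Cox6a2, Cox7a1 and Cox8b, which are known from heart and skeletal muscle, beside the widely used Cox6a1, Cox7a2 and Cox8a. Ndufa4 encodes a small subunit first placed in complex I and now counted to complex IV, and its paralog Ndufa4l2 is known as a target of hypoxia-inducible factor 1.

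Promoter sequences are shown because nuclear respiratory factor 1 (NRF1) is known to drive many of these genes and because Ndufs5, Cox7a1 and Cox7a2 return in the comparisons that follow. RefSeq (GRCm38.p6) promoter windows, cut to the 250 bases before the transcription start, were found for 66 of the 82 members, and these had 71 windows. The NRF1 letters, GCGCA and GCGC with any base between them, stood in 19.7% of the member windows and in 3.74% of all 32851 windows, on either strand. CCGGAAG, the ETS motif, stood in 16.9% of member windows against 6.91% of all, and AAGGTCA, the estrogen-related receptor (ERR) motif, in 7.04% against 4.08%. The hypoxia element core GCGTG stood in 40.8% against 28.2%, its other form ACGTG in 19.7% against 16.6%, and the MEF2 letters, CTA and TAG with any 4 bases between them, in 1.41% against 3.20%. NRF1 letters with C at the free position also hold GCGTG on the reverse strand, and windows were counted for each motif on its own. In the sequences below, capitals mark these matches and each is written 5′ to 3′ on the strand of its gene.

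The Cox6a1 window (chr5:115348959-115349208, minus strand) held the NRF1 letters at 2 positions and the ETS letters on the reverse strand.
Cox6a1: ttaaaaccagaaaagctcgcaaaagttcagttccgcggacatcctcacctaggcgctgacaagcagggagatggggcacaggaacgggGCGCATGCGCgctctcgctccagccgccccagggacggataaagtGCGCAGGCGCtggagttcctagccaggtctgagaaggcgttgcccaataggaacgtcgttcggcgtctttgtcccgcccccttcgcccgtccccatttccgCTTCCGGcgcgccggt
The Ndufs5 window (chr4:123718187-123718436, minus strand) held the NRF1 letters at 1 position and the ERR letters on the reverse strand.
Ndufs5: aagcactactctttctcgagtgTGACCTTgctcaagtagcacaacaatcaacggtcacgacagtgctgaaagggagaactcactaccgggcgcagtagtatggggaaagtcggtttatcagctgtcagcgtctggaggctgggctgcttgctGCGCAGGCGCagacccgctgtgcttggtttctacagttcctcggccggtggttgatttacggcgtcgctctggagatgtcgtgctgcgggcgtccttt
The window of the muscle isoform Cox7a1 (chr7:30183921-30184170, plus strand) held GCGTG on each strand and none of the NRF1, ETS or ERR letters.
Cox7a1: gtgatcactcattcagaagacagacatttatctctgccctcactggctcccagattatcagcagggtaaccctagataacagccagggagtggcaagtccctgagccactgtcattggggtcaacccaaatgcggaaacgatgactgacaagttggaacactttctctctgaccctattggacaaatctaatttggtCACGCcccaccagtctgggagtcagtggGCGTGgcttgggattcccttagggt
The window of its widely used partner Cox7a2 (chr9:79759854-79760103, minus strand) held GCGTG on the reverse strand only.
Cox7a2: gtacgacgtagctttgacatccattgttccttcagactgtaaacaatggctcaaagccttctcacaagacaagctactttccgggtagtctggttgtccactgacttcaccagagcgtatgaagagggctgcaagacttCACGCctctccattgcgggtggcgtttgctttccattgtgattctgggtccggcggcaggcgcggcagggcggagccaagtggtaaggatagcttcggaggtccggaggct
A match is a description of letters in a window and not a bound site.

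Of 21042 deposited cells, 20060 passed the study's limits on genes and UMIs (unique molecular identifiers, the tags of single captured RNA molecules), with 1227 to 2747 cells and 7468914 to 16566202 UMIs per library. No barcode was shared between libraries. Every deposited library had the same median of 5358 UMIs per cell, and how the files came to share it is not given in the sources used here. Cells were clustered without the members and without Hk2 among the variable genes, and clusters were named from fixed markers, so each name stands for cells like that type. The classes were fibroblast (9946 cells), tenocyte (1933), vascular endothelial (1767), osteoblast (1363), perivascular (656), proliferating (620), chondrocyte (314), muscle, meaning satellite cells and myoblasts (265), and lymphatic endothelial (186). Fibroblasts of libraries with neighbouring barcode suffixes resembled each other, and these runs of suffixes are described with the stages.

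The share of a cell type's UMIs that fell on all 82 members was highest in smooth muscle cells and lowest in muscle cells and tenocytes among the named types with sums in at least 6 libraries. It was 3.02% ± 0.236 (SD, n = 10 libraries) in smooth muscle cells, 2.44% ± 0.0703 (n = 6) in proliferating cells, where the fibroblasts of the same libraries had 2.06% ± 0.0756, 2.06% ± 0.173 (n = 10) in lymphatic endothelium and 2.02% ± 0.247 (n = 12) in pericytes. Fibroblasts had 1.91% ± 0.175 (n = 12), vascular endothelium 1.91% ± 0.190 (n = 12), osteoblasts 1.79% ± 0.139 (n = 12) and chondrocytes 1.67% ± 0.114 (n = 8). Tenocytes had 1.56% ± 0.111 (n = 12) and muscle cells 1.51% ± 0.0802 (n = 8). Within libraries, tenocytes lay below fibroblasts in 12 of 12 and muscle cells in 8 of 8, while perivascular cells lay above in 12 of 12 and proliferating cells in 6 of 6. Vascular endothelium and fibroblasts did not separate, with 6 of 12 libraries each way, and neighbouring types from lymphatic endothelium to osteoblasts overlapped in their ranges. A share of UMIs is relative to the other RNA of the same cells, and fewer mitochondria per cell and less of these RNAs per mitochondrion cannot be told apart.

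**Figure D1:**
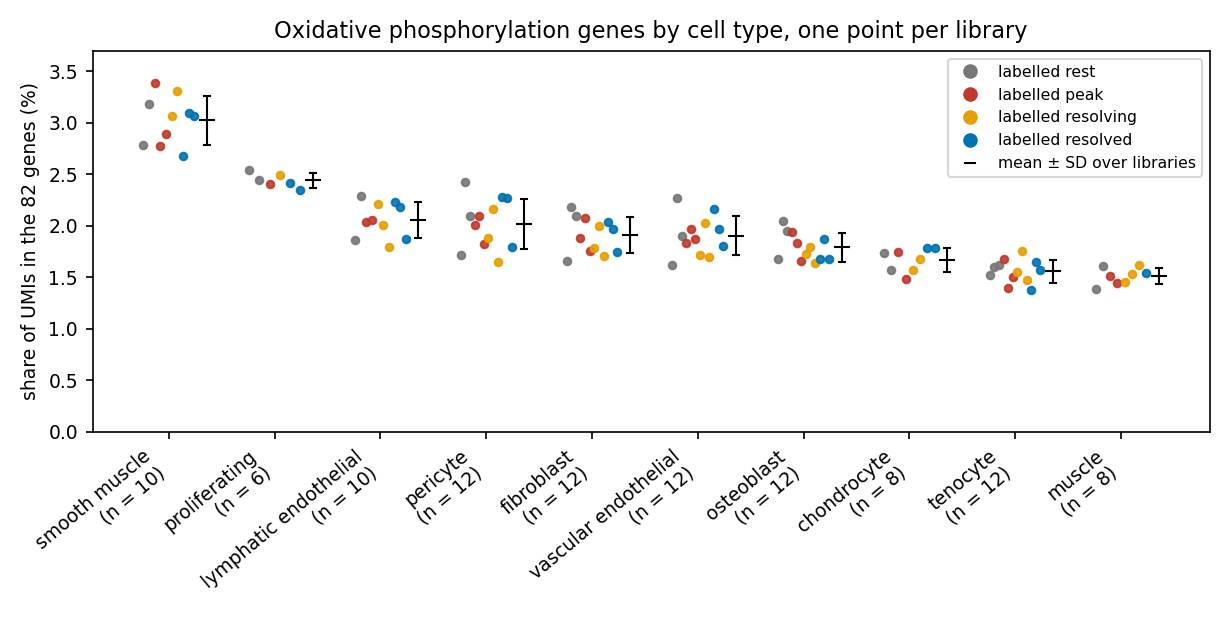
Share of UMIs on the 82 oxidative phosphorylation genes (percent, y axis) in each cell type (x axis), 1 point per library with the mean and SD. Smooth muscle cells lie at 2.68% to 3.38%, above the fibroblasts of every library (1.66% to 2.18%), and muscle cells and tenocytes lie lowest of the types plotted.

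In fibroblasts, 64 of the 82 members had a mean level of at least 100 counts per 1000000 UMIs (CPM) and 8 had less than 10. These 3′ counts tally molecules, so levels of different genes were compared in CPM without scaling by length. The highest was Cox6c, a small subunit of complex IV, at 769 ± 136 CPM (SD, n = 12), followed by Atp5l of complex V at 685 ± 47.0 and Cox8a of complex IV at 646 ± 68.2. Among members above 10 CPM, the lowest was Ndufs1, the largest subunit of complex I, at 28.6 ± 3.81 CPM. Below 10 CPM lay the isoforms Cox6b2 (4.06), Cox7a1 (3.31), Cox8b (2.14) and Cox6a2 (0.737), together with Atp5sl (6.99) and Atp5s (4.49), and Cox7b2 and Cox8c had 1 UMI each in all fibroblasts. By complex, 0.663% ± 0.0405 of fibroblast UMIs fell on complex I, 0.0374% ± 0.00155 on complex II, 0.218% ± 0.0184 on complex III, 0.457% ± 0.0543 on complex IV and 0.533% ± 0.0670 on complex V (n = 12).

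Ndufa4 and Ndufa4l2 changed places between cell types. Ndufa4 lies on chr6:11900292-11907497 and Ndufa4l2 on chr10:127514967-127517154. In pericytes, Ndufa4 had a lowest, median and highest level of 18.4, 47.5 and 104 CPM over 12 libraries, and in fibroblasts 284, 335 and 457 CPM, so no pericyte library reached the lowest fibroblast library. Ndufa4l2 had 483, 754 and 1162 CPM in pericytes and 95.1, 145 and 474 CPM in fibroblasts, again without overlap. Ndufa4l2 made up 93.2% ± 3.68 of the UMIs of the pair in pericytes (n = 12), 63.5% ± 11.4 in smooth muscle cells (n = 10), 62.4% ± 8.69 in tenocytes (n = 12) and 33.0% ± 9.55 in fibroblasts (n = 12). Its share was 27.0% ± 8.30 in osteoblasts, 17.7% ± 5.82 in vascular endothelium (both n = 12) and 1.75% ± 2.85 in lymphatic endothelium (n = 10). Lymphatic endothelium had 5 UMIs of Ndufa4l2 in all, a mean of 6.17 CPM over 10 libraries with a median of 0.

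**Figure D2:**
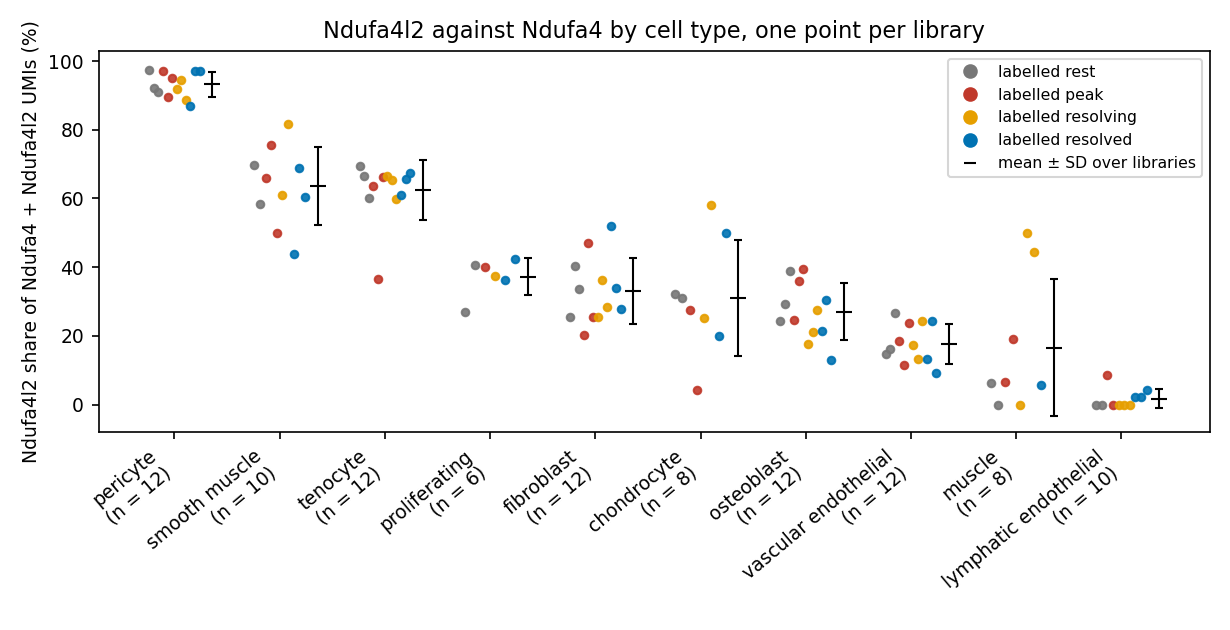
Share of Ndufa4l2 in the UMIs of Ndufa4 and Ndufa4l2 together (percent, y axis) by cell type (x axis), 1 point per library with the mean and SD. Of the types plotted, pericytes lie highest at a mean of 93.2% and lymphatic endothelium lowest at 1.75%.

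Perivascular cells as a whole were tested against fibroblasts within libraries. A gene counted as higher or lower, here and in all comparisons, where it differed by more than 0.5 on the log2 scale and its p-value, from the quasi-likelihood test in edgeR and adjusted by Benjamini-Hochberg for all genes tested, was under 0.05. Of 77 members tested, 8 were higher and 3 lower, where 18.8% of all 8796 genes tested were higher and 23.1% lower. Ndufa4l2 was higher by 1.73 ± 0.23 on the log2 scale (± standard error, adjusted p = 2.9e-10) and Ndufa4 lower, at -1.30 ± 0.13 (adjusted p = 1.5e-14). A pair of complex IV isoforms with low counts was higher, Cox6b2, known from testis, at 2.18 ± 0.32 (8.27, 22.6 and 41.0 CPM as lowest, median and highest of 12 libraries, against 1.54, 3.91 and 7.64 in fibroblasts) and Cox7a1 at 1.84 ± 0.33. The Cox6b2 ranges did not overlap, while Cox7a1 was at 0 in a perivascular library. Sdhc, a membrane anchor of complex II, rose by 0.95 ± 0.10, from 67.9 ± 8.86 to 155 ± 35.6 CPM (n = 12 each). Atp5b, the catalytic beta subunit of complex V, rose by 0.60 ± 0.08 in 12 of 12 libraries, and Ndufv3 was lower at -0.64 ± 0.09. With no scaling beyond total counts, 21 members were higher and 1 lower, and that scaling moved the median of all genes from -0.07 to 0.13.

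The perivascular cells held smooth muscle cells (214 cells) and pericytes (401 cells), and within them the members moved together. Of 70 members tested, 40 were higher in smooth muscle cells and 1, Ndufa4l2, was lower, against 19.9% higher and 18.9% lower of 1473 genes tested. The median log2 fold change of the members was 0.53 and that of all genes -0.02. By complex, 18 of 34 members of complex I were higher, 2 of 3 of complex II, 5 of 8 of complex III, 7 of 10 of complex IV and 8 of 15 of complex V. The share of UMIs on all members was higher in smooth muscle cells in each of the 10 libraries with both kinds of cells. The result hardly moved with the scaling, with 36 members higher and 1 lower when only total counts were used.

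Ndufa4 had the largest difference, 2.60 ± 0.23 on the log2 scale (adjusted p = 4.9e-08), from 198, 342 and 383 CPM in smooth muscle cells against 18.4, 47.5 and 104 in pericytes, and the ranges did not overlap. Ndufb7, an accessory subunit of complex I, differed by 1.47 ± 0.16, with 269, 323 and 420 CPM against 58.6, 110 and 171, again without overlap. Ndufa5, also of complex I, differed by 1.10 ± 0.14 and was higher in 10 of 10 libraries, though its ranges of 217 to 406 and 87.5 to 234 CPM overlapped. Cox8a rose by 0.84 ± 0.10, and its partner subunits in complex IV, Cox7a2 and Cox6a1, rose by 0.76 ± 0.13 and 0.65 ± 0.13. Sdha, the flavoprotein of complex II, rose by 0.63 ± 0.21 and Atp5a1, the alpha subunit of complex V, by 0.60 ± 0.14. Ndufa4l2 was lower in 9 of 10 libraries at -0.52 ± 0.15 (adjusted p = 0.0096), with 277, 583 and 890 CPM against 483, 754 and 1162, and those ranges overlapped.

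**Figure D3:**
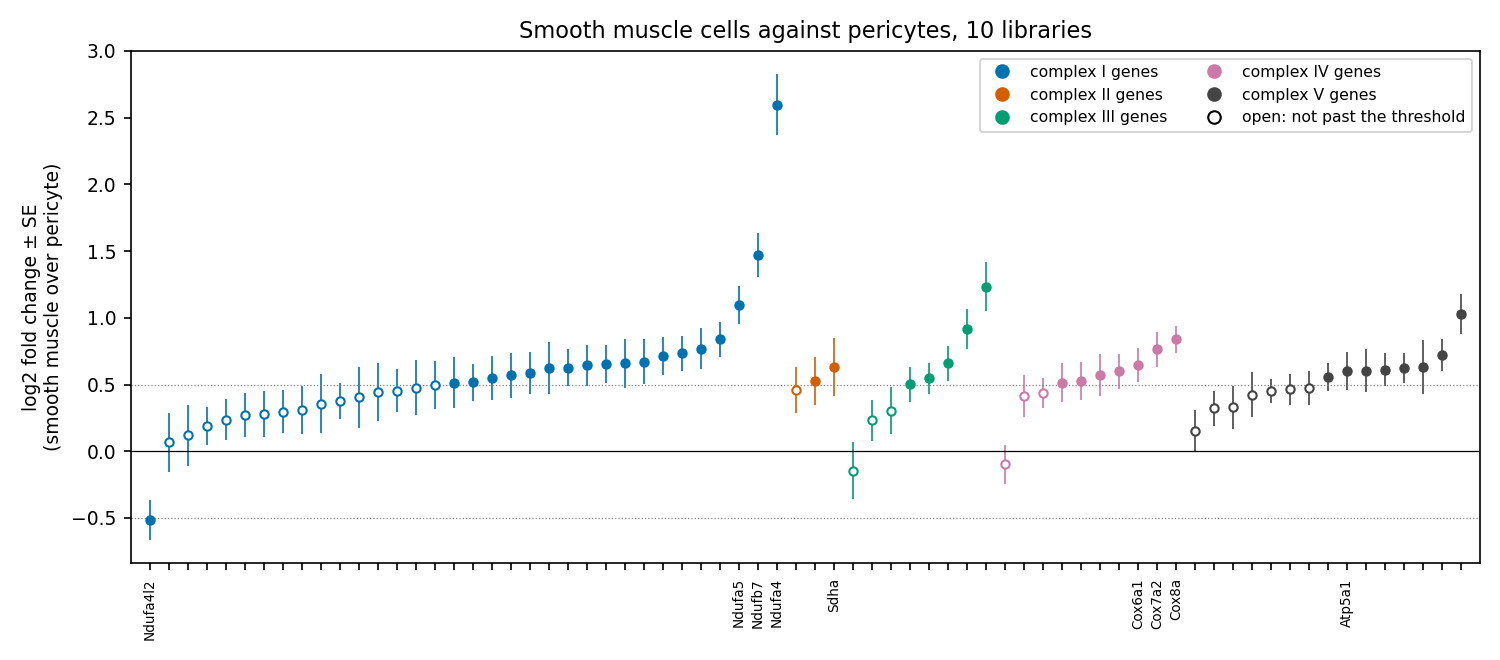
Log2 fold change with its standard error (y axis) of each of the 70 tested members in smooth muscle cells over pericytes, ordered by size within each complex (x axis), with filled points past the threshold and labels for the members described for this comparison. 40 members are filled above 0, Ndufa4 lies highest at 2.60, and Ndufa4l2 at -0.52 is the member called lower.

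All 12 tested subunits encoded by mitochondrial DNA were higher in smooth muscle cells too, among them mt-Nd2 by 1.10 and mt-Nd4 by 1.08, and their share of UMIs was 5.65% ± 0.783 (n = 10) against 3.37% ± 0.456 (n = 12). Of the tested genes of the citrate cycle and pyruvate dehydrogenase, 2 of 5 were higher, among them Mdh2 at 0.66. Of 11 tested proteins of the mitochondrial ribosome 2 were higher, near the 19.9% of all genes tested. Of 87 tested proteins of the cytosolic ribosome, 14 were lower and none higher, beside 18.9% of all genes lower and 19.9% higher. Median depth was similar, at 3907.5 UMIs per smooth muscle cell and 3695 per pericyte.

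Lining fibroblasts, which face the joint cavity and carried Prg4 and Clic5, were set against sublining fibroblasts with Pi16 and Dpp4. Ndufs5, an accessory subunit of complex I whose promoter letters are given above (gene at chr4:123712710-123718202), had 362, 389 and 500 CPM as lowest, median and highest of 12 lining libraries and 128, 161 and 214 CPM in the sublining. The lining libraries all lay above the sublining libraries. The log2 fold change was 1.16 ± 0.08 (adjusted p = 1.6e-11). Of 74 members tested, 5 were higher in the lining and 1 lower, against 15% of all 5697 genes higher and 17.6% lower. Besides Ndufs5 these were Uqcr11 and Uqcrq of complex III, each by 0.62, Ndufa1 of complex I by 0.56, and Ndufa4l2 by 0.52 in 8 of 12 libraries. Ndufs4, which joins complex I late in its assembly, was lower at -0.68 ± 0.09, in 10 of 12 libraries.

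The other members shifted less but mostly the same way. With an adjusted p-value under 0.05 alone, 37 members were higher in the lining and 3 lower, against 25.4% and 25.5% of all genes, and the median of the members was 0.18 beside 0.01 for all genes. The share of UMIs on the members was 2.23% ± 0.287 in lining and 1.73% ± 0.104 in sublining fibroblasts (n = 12 each) and higher in the lining in 12 of 12 libraries. With total counts alone, 14 members were higher and 1 lower. Of 97 tested proteins of the cytosolic ribosome, 71 were lower in the lining, and lining cells had a median of 7635 UMIs against 4917, and the part of either in the members' shift was not tested. Cox17, a copper chaperone for complex IV, was higher by 1.15. It was among 3 of 20 tested assembly factors past the threshold, beside 15% of all genes higher, so that count lay at the background.

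The muscle isoforms of complex IV were concentrated in a cluster of 132 cells without a name, led by Acta1, Myl1 and Tnnc2, genes of contracting skeletal muscle fibres. It had sums in 5 libraries and was described without a test. Cox6a2 had 3614, 3060, 2655, 3084 and 3175 CPM in the libraries peak 1, peak 3, resolving 1, resolving 3 and resolved 3, and Cox6a1 had 36.7, 36.5, 73.2, 46.5 and 77.7 CPM in the same libraries. Cox6a2 thus made up 98.3% ± 0.746 of the pair, against 0.131% ± 0.124 in fibroblasts (n = 12). Cox8b had 2312, 1799, 1526, 1676 and 1976 CPM and 86.0% ± 1.18 of its pair with Cox8a. Cox7a1 had 1413, 1074, 1233, 1548 and 1632 CPM and 58.2% ± 4.85 of its pair with Cox7a2, which kept a mean of 984 CPM. Atp5g1, which encodes the same mature c subunit of complex V as Atp5g2 and Atp5g3, made up 66.0% ± 1.77 of the 3 genes there and 38.3% ± 2.79 in fibroblasts. All members together took 7.86% ± 0.394 of this cluster's UMIs (n = 5), and the 9 mature muscle markers took 16.9% ± 1.95.

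**Figure D4:**
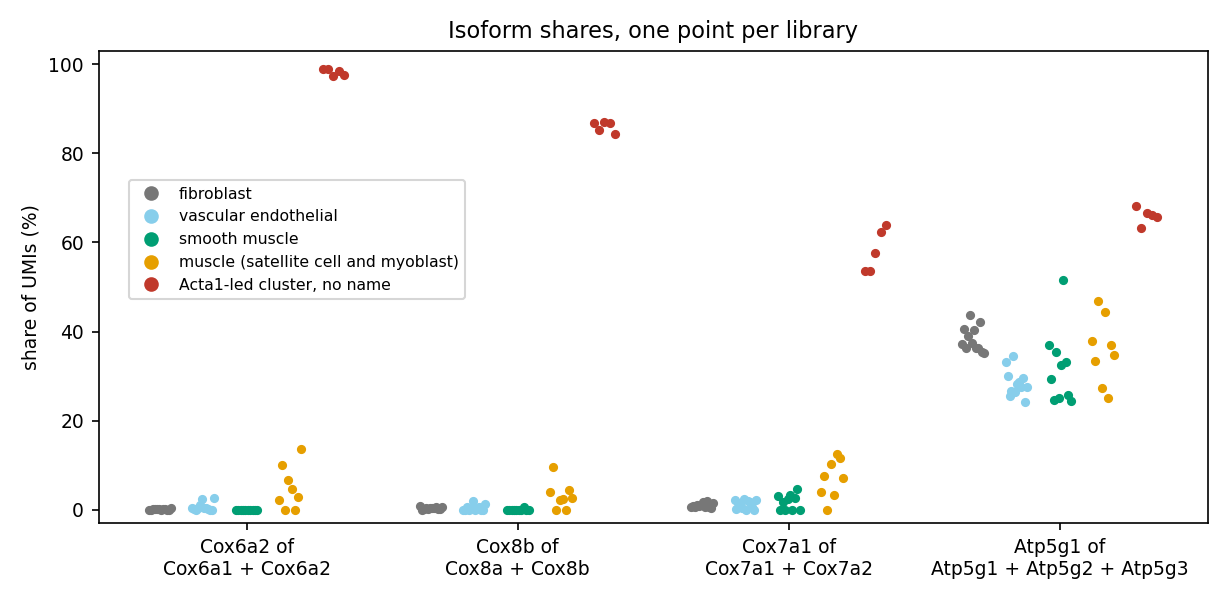
Share of an isoform in the UMIs of its isoform set (percent, y axis) for Cox6a2, Cox8b, Cox7a1 and Atp5g1 (x axis), 1 point per library, coloured by cell type. The Acta1-led cluster lies at means of 98.3%, 86.0%, 58.2% and 66.0%, above every other point of its set.

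Satellite cells and myoblasts, the muscle precursors with Pax7 and Myod1, differed from that cluster and had lower levels of many members than fibroblasts. Of 77 members tested, 1 was higher and 39 lower, against 12.5% of all genes higher and 28.2% lower. The members' median was -0.55 and that of all genes -0.41. Ndufa8 of complex I was lower at -1.70 ± 0.22, Sdhd, the other membrane anchor of complex II, at -1.69 ± 0.26 and Ndufa3 of complex I at -1.61 ± 0.20. Ndufa8 had 23.7, 42.6 and 85.4 CPM in 8 muscle libraries, below each of the 12 fibroblast libraries (115 to 149). With total counts alone, 1 was higher and 27 lower. The member that rose was Cox7a1, by 2.44 ± 0.47 in 7 of 8 libraries, from 18 UMIs in all, at 0, 28.8 and 45.8 CPM. The mature muscle markers were higher in these cells for 8 of 8 tested, at 0.0938% ± 0.0428 of UMIs (n = 8) against 0.00436% ± 0.00217 in fibroblasts (n = 12), and their part in the Cox7a1 value was not tested. Muscle cells had a median of 2567 UMIs.

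Tenocytes, the cells of tendon with Tnmd and Scx, had 1 member higher and 5 lower of 77, against 9.39% of all genes higher and 11.3% lower. Ndufa4l2 rose by 1.25 ± 0.22 in 10 of 12 libraries, at 126, 403 and 552 CPM against 95.1, 145 and 474 in fibroblasts, with overlap. Ndufa3 fell by 0.72 on the log2 scale, from 178 ± 36.8 to 99.5 ± 15.1 CPM, and was lower in 12 of 12 libraries. Ndufa4 was lower at -0.52 ± 0.12 and Sdhd at -0.51 ± 0.11. Cox7a1 was lower at -1.69 ± 0.42, on 11 UMIs in all tenocytes. The median of the members was -0.17 against -0.05 for all genes, and with total counts alone 12 members were lower.

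Chondrocytes, which make cartilage and carried Col2a1 and Acan, had 1 member higher and 8 lower of 77, against 20.5% of all genes higher and 29.1% lower. Ndufv1, the NADH-binding subunit of complex I, had 18.7, 36.5 and 54.1 CPM in 8 libraries against 82.1, 88.1 and 102 CPM in fibroblasts. The ranges did not overlap and the log2 fold change was -1.04 ± 0.13 (adjusted p = 5.0e-11). Sdhb and Sdhc of complex II were lower at -0.54 ± 0.11 and -0.56 ± 0.14, and Atp5g2 was higher at 0.69 ± 0.12 in 7 of 8 libraries. Of the citrate cycle and pyruvate dehydrogenase genes, 7 of 16 were lower and none higher, with Dlst lowest at -1.14. The chondrocytes had a median of 12533.5 UMIs per cell against 5606 in fibroblasts, and 8 of the 9 calls were also made after each cell was thinned to 2000 UMIs, 7 in DESeq2 and 5 with cells of at most 10% mitochondrial UMIs.

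Osteoblasts, the bone-forming cells with Bglap and Ibsp, had 1 member higher and 6 lower of 77, against 13.9% higher and 17.8% lower of all genes. Cox7a2l, counted here with complex IV, was lower in 12 of 12 libraries at -0.65 ± 0.09, with 178, 234 and 360 CPM against 274, 348 and 402 in fibroblasts. Uqcr11 and Uqcrq of complex III were each lower at -0.64, the same pair that was higher in the lining. Cox6b2 was higher by 1.71 ± 0.28 in 10 of 12 libraries, and its paralog Cox6b1 was lower at -0.56 ± 0.09.

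Proliferating cells, with Mki67 and Top2a, had 4 members higher and 3 lower of 77, against 11.2% higher and 16.1% lower of all genes. Cox5a, a subunit of complex IV, rose by 0.62 ± 0.12, from 287 ± 36.2 CPM in the fibroblasts of the 6 libraries with proliferating cells to 449 ± 55.4 CPM, and Cox7a2 rose by 0.54 ± 0.10, from 326 ± 18.1 to 514 ± 17.9 CPM, both in 6 of 6 libraries. Cox7a2l went the other way, at -0.82 ± 0.11 in 6 of 6, with 237 ± 31.1 CPM against 338 ± 57.0. Of 73 tested proteins of the mitochondrial ribosome, 14 were higher and none lower, and cytochrome c (Cycs) was higher by 1.02. With total counts alone, 14 members were higher and 2 lower, the median of all genes having moved from -0.04 to 0.10. Without the 3 fibroblast clusters described with the runs of suffixes, 8 members were higher and 3 lower. The median depth of these cells was 11970.5 UMIs.

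In endothelium the direction of the members as a set depended on the scaling, and only single genes were clear. Vascular endothelium had 2 members higher and 17 lower of 77, against 27.4% and 26.7% of all genes, but 10 higher and 5 lower with total counts alone, which moved the median of all genes from 0.01 to 0.28. Ndufa13 of complex I, which shares its strand and position with Yjefn3, had 189, 235 and 274 CPM in vascular endothelium and 380, 415 and 462 CPM in fibroblasts without overlap, and the log2 fold change was -1.12 ± 0.09. Ndufv3 was lower at -1.14 ± 0.09 and Ndufa4l2 at -1.44 ± 0.24, in 11 of 12 libraries, while Ndufa8 was higher at 0.83 ± 0.10 in 12 of 12, with 182, 274 and 388 CPM. The mature muscle markers were higher for 8 of 8 tested, at 0.0169% ± 0.0115 of UMIs (n = 12), while Cox6a2, Cox7a1 and Cox8b were at 3.67, 5.19 and 2.47 CPM.

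Lymphatic endothelium had 2 members higher and 33 lower, against 14.2% and 27.6% of all genes, but 3 higher and 4 lower with RLE size factors, and 12 higher and 3 lower with total counts alone, where the median of the members went from -0.45 to 0.11 and that of all genes from -0.25 to 0.30. Ndufa4l2 was lower by the largest amount, at -5.36 ± 0.63, and no library of lymphatic endothelium reached 95.1 CPM, the lowest fibroblast value, its highest being 28.5 CPM. Ndufa13 and Ndufv3 were lower at -1.12 ± 0.11 and -1.11 ± 0.12, near their values in vascular endothelium, and each was lower in 10 of 10 libraries. Cox7a1 had no UMI in lymphatic endothelium, and the level in fibroblasts was under the limit that a count of 0 allows there, so no fold is given.

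The study divided fibroblasts by whether a cell had a UMI of Hk2, the enzyme that starts glycolysis and can bind the mitochondrial outer membrane. There were 4979 positive cells, with a median of 6152 UMIs, and 4967 negative cells, with 5055. Of 76 members tested, none was past the threshold, against 6.18% of all 9404 genes. With an adjusted p-value under 0.05 alone, 3 members were higher and 10 lower in positive cells, against 15.7% and 13.7% of all genes. The 3 higher were Cox7a2l at 0.18 ± 0.04, Uqcrh at 0.14 ± 0.03 and Cox8a at 0.09 ± 0.03 on the log2 scale. Among the 10 lower were Sdha and Uqcrc1, a core protein of complex III, each at -0.21, and Ndufs1 at -0.26 ± 0.07. No member of complex II lay above 0 and 7 of 10 tested members of complex IV did. The members' median was -0.03 and that of all genes -0.01.

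The share of UMIs on the members was 1.83% ± 0.206 in positive and 1.98% ± 0.149 in negative cells (n = 12 each) and lower in positive cells in 11 of 12 libraries. For complexes I and II it was lower in 12 of 12. Such a share is scaled by total counts only. Under that scaling, positive against negative cells had medians of -0.15 over the 76 members and -0.13 over the 9404 genes, on the log2 scale. These lay close together, so the lower share does not by itself set the members apart from other genes. The share on proteins of the cytosolic ribosome was higher in positive cells in 12 of 12 libraries, and its part in the lower share of the members was not tested. No member was past the threshold either when negative cells were matched to positive ones in UMIs per cell. Pprc1, a coactivator of nuclear respiratory factors, was higher by 0.72 in positive cells, 1 of 7 regulators tested.

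Across the stages no change of the members was detectable in fibroblasts. The share of UMIs was 1.66%, 2.18% and 2.10% in the 3 rest libraries, 1.88%, 2.08% and 1.76% at peak, 1.79%, 2.00% and 1.71% at resolving and 2.04%, 1.97% and 1.74% at resolved, so each later stage lay within the range of rest. None of the 79 members tested was past the threshold at any stage, where the percentage of all 11430 genes called was 0 too, in edgeR's quasi-likelihood test. At an unadjusted p under 0.05, edgeR gave 77, 130 and 60 genes at peak, resolving and resolved, DESeq2 gave 61, 83 and 35, and neither gave a member. The members' log2 fold changes ran from -0.79 to 0.93. In simulated data of this design, the test found 0% of the genes given a log2 change of 1, so a change of that size would have been missed.

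The spread within each label followed the barcode suffixes of the files. The suffixes 1 to 12 fell into 4 runs of 3 neighbours, with rest 1, peak 1 and resolving 1 in run 1, resolved 1, rest 2 and peak 2 in run 2, resolving 2, resolved 2 and rest 3 in run 3, and peak 3, resolving 3 and resolved 3 in run 4. The suffixes were deposited with the barcodes, and the cut into runs of 3 was made here. It was made because earlier results of these data had shown libraries with neighbouring suffixes to resemble each other. P-values over the runs are therefore no independent support for this grouping. The runs are not groups of the study, and each holds 3 of the 4 labels. The members took 1.66% to 1.88% of fibroblast UMIs in run 1, 2.04% to 2.18% in run 2, 1.97% to 2.10% in run 3 and 1.71% to 1.76% in run 4. Runs 2 and 3 did not overlap with runs 1 and 4. The runs also held different fibroblasts. The clusters led by Cxcl5 and Saa3 (1628 cells), by Hp and Acp5 (943 cells) and by Il1rl1 and Col5a3 (644 cells) made up 58.0% and 54.9% of the fibroblasts in runs 2 and 3 and 1.27% and 2.12% in runs 1 and 4. Without these clusters the members took 1.65% to 1.88%, 1.80% to 2.03%, 1.99% to 2.02% and 1.70% to 1.75% of UMIs in runs 1 to 4, and runs 1 and 2 overlapped. An F test over the 4 runs in edgeR called 45 of 79 members at an adjusted p under 0.05, against 55.5% of all genes, so the members' count lay near that background. Without the 3 clusters it called 16 members, 15 of them among the 45, against 18.7% of 10448 genes. With the runs as a block, 0 members and 0 genes in all were called for each stage. Other classes were uneven over the runs too. Proliferating cells had sums only in libraries of runs 2 and 3, and the Acta1-led cluster only in libraries of runs 1 and 4.

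**Figure D5:**
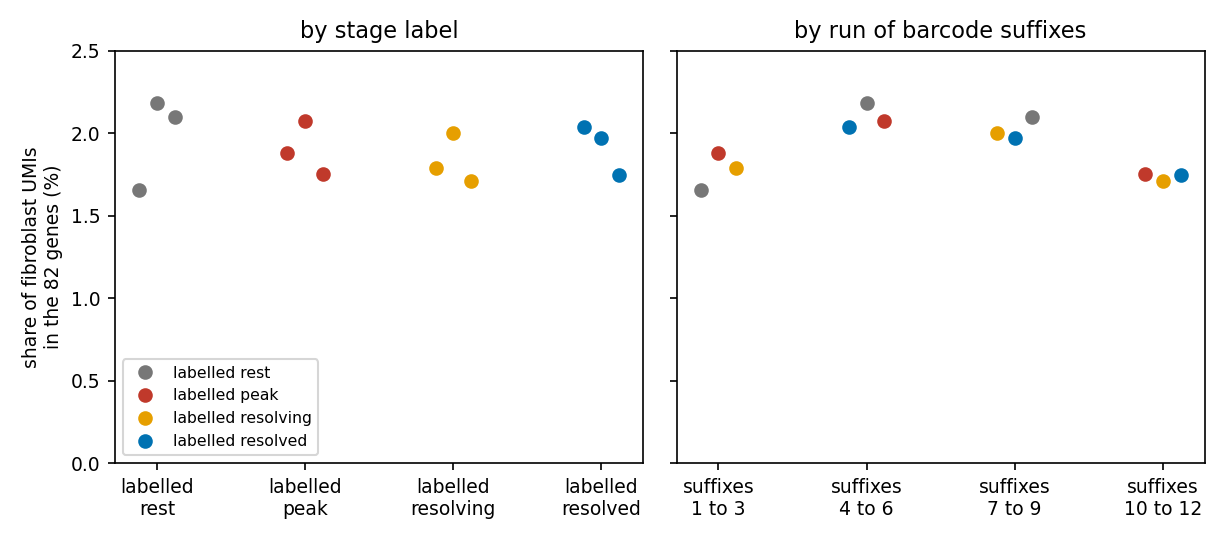
Share of fibroblast UMIs on the 82 members (percent, y axis), 1 point per library, ordered by stage label on the left and by run of barcode suffixes on the right, coloured by label. The 4 labels overlap, while suffixes 4 to 9 lie at 1.97% to 2.18%, above suffixes 1 to 3 and 10 to 12 at 1.66% to 1.88%, with all fibroblast clusters included.

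By complex, 15 of 37 members of complex I varied over the runs, 3 of 4 of complex II and 2 of 8 of complex III. In complex IV it was 12 of 13 and in complex V 13 of 17, beside 55.5% of all genes. These counts include all fibroblast clusters, and without the 3 clusters 16 of 79 members were called in all. Of the 45, 27 were highest in run 2 and 24 lowest in run 4, and the order over all genes is not given here. Ndufa4l2 varied most among the examples, with means of 105, 393, 177 and 108 CPM in runs 1 to 4 (adjusted p = 5.0e-08). Its lowest library in run 2 had 307 CPM and its highest elsewhere 189. Without the 3 clusters the means were 105, 145, 105 and 109 CPM (adjusted p = 0.0136). Atp5g1 had means of 225, 435, 304 and 203 CPM (adjusted p = 2.4e-06) and Cox5a 197, 319, 254 and 199 CPM (adjusted p = 1.7e-05). Leaving out the 3 clusters gave Atp5g1 means of 224, 302, 279 and 203 CPM (adjusted p = 0.00474 in the same F test). Cox5a then had 197, 263, 243 and 198 CPM (adjusted p = 0.0175). Cox7a2 had 325, 335, 317 and 330 CPM and did not pass the test (adjusted p = 0.55), nor did Ndufs5, at 210, 229, 231 and 223 CPM (adjusted p = 0.19). Proteins of the cytosolic ribosome took 14.7%, 20.7%, 18.0% and 15.2% of UMIs in the 4 runs, and their part in the members' variation was not tested.

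Other genes of the pathway were counted in the same comparisons with fibroblasts. The mitochondrially encoded subunits were higher in perivascular cells for 7 of 12 tested, beside 18.8% of all genes. In lymphatic endothelium 4 of 12 were lower, beside 27.6% of all genes, and 0 with RLE size factors or total counts alone. In muscle cells 1 of 12 was lower, beside 28.2% of all genes. None was called in tenocytes, osteoblasts, chondrocytes, proliferating cells or vascular endothelium. Among assembly factors, 1 of 29 was higher and 9 lower in muscle cells, with Uqcc3 of complex III lowest at -2.37, beside 12.5% and 28.2% of all genes, while in chondrocytes 4 were higher and 3 lower, beside 20.5% and 29.1%. The citrate cycle and pyruvate dehydrogenase genes were higher in perivascular cells for 5 of 16, beside 18.8% of all genes, including 3 subunits of isocitrate dehydrogenase 3, of which Idh3a rose by 0.65. Proteins of the mitochondrial ribosome were lower for 27 of 73 in muscle cells, beside 28.2% of all genes. In lymphatic endothelium 4 of 73 were higher and 28 lower, beside 14.2% and 27.6% of all genes. Total counts alone gave 11 higher and 3 lower. Of the regulators, Tfam, which packs and transcribes mitochondrial DNA, was higher in muscle cells by 1.15 and Nrf1 in vascular endothelium by 0.74. Each was 1 of 6 tested, beside 12.5% and 27.4% of all genes higher.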

How the data were processed

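The authors captured CD45-negative cells of hind limb joints with the 10x Genomics 3′ kit, aligned the reads with Cell Ranger to mm10 and deposited whole counts of UMIs per gene and cell for 12 libraries, taken before their limits on cells. Cells had to have more than 500 genes and fewer than 5000, and more than 500 UMIs and fewer than each library's own limit of 20000 to 40000, as the study's methods give them. This left 20060 of 21042 cells, fewer than the study states for its own quality control. Labels of the samples gave the groups, and 0 columns of other samples were present.

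Counts were scaled to 10000 per cell and clustered on 2000 variable genes, without the members and Hk2, with 30 principal components, 20 neighbours and Leiden resolution 1 in scanpy 1.11.5. A cluster took a name with at least 4 markers that 20% of its cells held and that were raised by 1 or more on the log2 scale, fibroblast clusters with 5 of 7 markers in 30% of cells, and subsets with 3. Scrublet called 56 cells (0.279%), too few to have worked, so doublets stayed in and an alternative removed the 6% with the highest scores in each library.

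UMIs were summed per library and class over at least 10 cells, for classes in at least 6 libraries, and normalized by TMM after genes of low counts were filtered by edgeR's default. The quasi-likelihood test (two-sided, edgeR 4.0.16 in R 4.3.3) was run on all remaining genes, and Benjamini-Hochberg adjustment took in each of them. The library was a block wherever classes of the same libraries were compared. The standard error is the log2 fold change over the square root of F. With the library as a block, p-values weigh a difference against how the classes varied from pool to pool. All cell types and fibroblasts were fitted in a single model. There the spread was shared over all types and was not that of the compared pair alone. For stages and runs, p-values measure the spread between pools of animals. Levels are means over libraries of counts per 1000000 UMIs of the class (CPM). A count of 0 allows up to 3 UMIs.

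In simulated counts, in which 200 genes were changed by 1 on the log2 scale, the share recovered was 83% for vascular endothelium against fibroblasts (8796 genes), 98% for lining against sublining (5697), 95.5% for smooth muscle against pericytes (1473), 99.5% for Hk2 status (9404), 67.5% for runs (11430) and 0% for peak against rest (11430).

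Members and gene lists were chosen with earlier results of these data known. Named members were the catalytic subunits and tissue isoforms, and for each comparison up to 3 past the threshold each way with the same direction in every library. Others named beside them, among them Uqcr11, Uqcrq, Ndufa1 and Ndufs4 where they moved in fewer libraries, were chosen after their values were seen. Single values of some genes that the naming rule takes are not reported here. Reads of 11 members that overlap another gene on the same strand are uncertain: Atp5b, Atp5c1, Atp5g2, Atp5o, Cox7c, Ndufa10, Ndufa13, Ndufb2, Ndufb8, Ndufb9 and Ndufc2. Reads of near-identical paralogs could also have been dropped by the counting. The alternatives were no scaling beyond total counts, DESeq2 1.42.0, RLE size factors, no low-count filter, no library block, cells thinned to 2000 UMIs, at most 10% mitochondrial UMIs, doublet scores removed, Leiden resolution 0.5, an adjusted p alone, Hk2 from 2 UMIs, cells matched in UMIs, replicate numbers or runs as a block, and each library left out. Leaving out 3 fibroblast clusters that lay mostly in 2 runs was added after the values were seen. Not every alternative was run for each result. The thinning, the mitochondrial limit, the doublet removal and the other resolution were not run for lining against sublining or smooth muscle against pericytes.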

Additional observations from a re-analysis of the deposited data

Results flagged for a closer look

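Of 81 sets of libraries looked at, 10 had a library that stood apart from the others by Dixon's test, which chance gives in about 1 in 20 sets. In chondrocytes, the library resolved 1 had 0.0956% of UMIs on mature muscle markers, the highest of 8 libraries, and the others had at most 0.0375%. In lymphatic endothelium, peak 2 had 28.5 CPM of Ndufa4l2, the highest of 10, and the others at most 12.8. In muscle cells, resolving 2 had 0.0458% of UMIs on complex II, resolved 3 had 3.92% on the mitochondrially encoded subunits, resolving 3 had 228 CPM of Ndufa4l2 and rest 3 had 62.6 CPM of Cox8b, each the highest of 8 libraries. In proliferating cells, rest 3 had 0.00603% of UMIs on mature muscle markers and resolved 2 had 0.850 CPM of Cox8b, the other 5 libraries being at 0. In smooth muscle cells, resolved 1 had 7.92 CPM of Cox8b where the other 9 libraries had none, and resolving 2 had 560 CPM of Atp5g1, where the others had 190 to 326. The Cox8b flags rest on very few UMIs. Where all other libraries are at 0, any count is flagged, so the rate of 1 in 20 does not hold for such sets.

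The Acta1-led cluster without a name entered none of the tests. It had mean levels of 3118 CPM for Cox6a2, 1858 CPM for Cox8b and 1380 CPM for Cox7a1, and 7.86% of its UMIs fell on the members, over 5 libraries. Fibroblasts had 0.737 CPM of Cox6a2, 2.14 of Cox8b and 3.31 of Cox7a1.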

How the results depend on the processing

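The count of members called moved by more than 1.5 times under these alternatives. With an adjusted p alone it was 24 in chondrocytes, 53 in lymphatic endothelium, 37 in osteoblasts, 34 in perivascular cells, 26 in proliferating cells, 31 in tenocytes, 59 in vascular endothelium, 13 for Hk2 status and 40 for lining against sublining. This setting drops the minimum fold. With no scaling beyond total counts it was 15 in lymphatic endothelium, 22 in perivascular cells, 16 in proliferating cells, 13 in tenocytes, 15 for the lining and 1 for Hk2 status. In lymphatic endothelium it was 7 with RLE size factors and 6 with DESeq2, and in tenocytes 12 with no filter. Without the 3 fibroblast clusters held mostly by runs 2 and 3, an alternative chosen after seeing the data, it was 11 in proliferating cells and 16 across runs. For Hk2 status it was 1 with DESeq2, with Hk2-positive from 2 UMIs, with at most 10% mitochondrial UMIs and with doublet scores removed, that member being Atp5sl each time. The cause was not tested. In lymphatic endothelium, total counts alone turned 7 members from lower to slightly higher, at 0.0188 for Atp5j2, 0.0035 for Atp5k, 0.0403 for Atp5o, 0.0514 for Cox6c, 0.0411 for Ndufa4, 0.0045 for Ndufs5 and 0.0311 for Uqcr10. Over all named calls and settings, 1292 values kept their call, 257 kept their direction and lost it, and 7 reversed.

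Correlations (r) between libraries were taken across genes on log2 levels in fibroblasts, after the mean of each label was subtracted. Such deviations cancel out within a label, so positive r in some pairs goes with negative r in others. Libraries with the same replicate number had r over 0.1 in 11 of 18 pairs (-0.59 to 0.71, median 0.42, against a median of -0.27 for different numbers). Of these pairs, 8 also shared a run. Since r was not over 0.1 in every pair, the numbers were not taken as pairing. With the replicate block 0 members were called at each stage, as without it, and leaving out each library gave 0 to 0. For runs it gave 40 to 47 of the members. Libraries of the same run had r of 0.41 to 0.76 in 12 of 12 pairs. Without the library block, the counts for cell types were 6 to 46 and for smooth muscle cells 37. Depth limits the low isoforms and the classes under 300 cells.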

Other observations

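Cox4i2, a hypoxia-related isoform of subunit 4 of complex IV that the name rule does not take, had its highest levels among the tested types in chondrocytes and perivascular cells. It had a mean of 530 CPM in chondrocytes and 280 CPM in perivascular cells against 4.10 CPM in fibroblasts, log2 fold changes of 6.97 ± 0.25 and 5.80 ± 0.24 in edgeR's quasi-likelihood test. It made up 39.9% of the UMIs of Cox4i1 and Cox4i2 together in chondrocytes, 19.0% in perivascular cells and 19.4% ± 9.36 over 11 libraries in a cluster without a name led by Cytl1, Clu and Npy. Smaller rises were found in osteoblasts (3.00), vascular endothelium (2.76), tenocytes (2.37) and proliferating cells (1.27).

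Some clusters stayed outside the comparisons. Schwann, immune and erythroid cells had sums in 3 libraries or fewer, and Ndufa4l2 made up 5.56%, 0.385% and 11.5% of its pair with Ndufa4 in them. Of the clusters without a name, that led by Cytl1, Clu and Npy (554 cells) had a Ndufa4l2 share of 79.0% ± 5.88 over 11 libraries, that led by C1qtnf3 and Spon2 (1150 cells) 56.0% ± 12.3 over 7, and that led by Nppc and Col8a1 (890 cells) 47.1% ± 7.39 over 12. Tenocytes had 62.4% ± 8.69, and no test was made of these clusters.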
